A study of Mus musculus with 6 samples.

Results

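The DEAD-box and DEAH-box RNA helicases were examined in group 2 innate lymphoid cells (ILC2s) with and without toyocamycin. Members are the genes of the deposited table whose symbol starts with Ddx or Dhx and a digit. The rule leaves out Ddx21, Ddx58 and Dhx58, of which 2 are in the deposited data by that symbol. The members number 50 of 25865 genes, 35 of them Ddx and 15 Dhx. The cells came from C57BL/6 mice, were sorted from the large intestine and were cultured for 5 days in IL-33, IL-25, IL-7 and IL-2 at 10 ng/mL of each cytokine. Their labels also enter ILC2s as a cell line. In the toyocamycin group (3 samples) the compound was then added for 16 h, and the Control group (3 samples) received vehicle. The sources used here do not give the dose, or the age and sex of the mice. They also do not say whether the samples of a group came from separate cultures or animals. The p-values therefore measure only how far these samples spread, which may be technical. ILC2s are lymphocytes of barrier tissues and a source of type 2 cytokines, and these were cultured cells under cytokine stimulation.

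RNA helicases of these families are enzymes that bind RNA and use ATP to open short duplexes or to strip proteins from RNA. They are named for the amino acids aspartate, glutamate, alanine and either aspartate (DEAD) or histidine (DEAH) in the motif that binds ATP. DEAD-box proteins pry duplexes apart locally, while many DEAH-box proteins move along a strand and are switched on by partner proteins with a G-patch domain. Their work covers each step of RNA life, from transcription, splicing and ribosome assembly in the nucleus to export, translation and decay. Toyocamycin is an adenosine analogue, known to block the processing of ribosomal RNA and the RNase of the stress sensor IRE1. The comparison asks which helicase transcripts differed between ILC2s exposed to it and those given vehicle.

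Sequences before the transcript starts are shown for members with measured changes, to set their shared motifs beside the directions of change. RefSeq windows of 300 bases (250 before and 50 after a transcript start, build GRCm38.p6) were found for 45 of the 50 members, in 56 windows. The E-box CACGTG was present in 7 of the 56 member windows (12.5%), against 7.15% of all 32851 windows. The windows of all genes were not limited to genes expressed in these cells. The cAMP response element TGACGTCA was in 6 windows (10.7%, against 1.79%), and the NRF1 motif, whose 10 letters are the capitals in the Dhx34 and Dhx37 stretches, in 3 (5.36%, against 0.971%). The CCAAT box was in 46.4% (37.4% of all windows) and the GC box GGGCGG in 57.1% (35.7%). Each motif was searched on both strands, and none of these motifs contains another. The stretches are 30 bases long and lie before a transcript start, written 5′ to 3′ on the gene's strand with the motif in capitals. Those with an E-box come first.

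Dhx35, chr2:158794655-158794684, plus strand: gccgcgcggcatCACGTGggccaaggagag
Dhx35, chr2:158794705-158794734, plus strand: gcgagctgcgatCACGTGatccatagtggg
Dhx33, chr11:71004450-71004479, minus strand: ccagcacgcctgCACGTGgcgagaaagggg
Dhx40, chr11:86807763-86807792, minus strand: gggtggcggaggCACGTGgcgatgggcggg
Ddx42, chr11:106230506-106230535, plus strand: tcccccatgatgCACGTGggatttttgatc
Ddx5, chr11:106788920-106788949, minus strand: cctgggtccgatCACGTGatgaggccaagc

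In the GENCODE annotation the stretches of Ddx42 and Ddx5 lie within the gene but in no exon, and the other 4 lie outside it, although the RefSeq gene, which reaches further, covers those of Dhx33 and Dhx40. These 5 genes were higher with toyocamycin on the deposited scale. So were 45.6% of all genes with a mean of at least 100 normalised reads. Ddx5, however, was called lower when the samples were set to equal totals. The other 2 members with an E-box in a window were Ddx4, which was not tested, and Ddx25, which did not pass. The cAMP response element is shown next, for genes whose transcripts went in different directions: Dhx36 was higher, Ddx49 lower, and Ddx19a and Ddx51 did not pass. Ddx28, the other member with this motif, was called higher on the deposited scale.

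Dhx36, chr3:62507076-62507105, minus strand: ggcgccgtccgTGACGTCAccggaaatgtc
Ddx49, chr8:70302546-70302575, minus strand: gggtctctccgTGACGTCAcattcctccgc
Ddx19a, chr8:110997827-110997856, minus strand: ggggcaggaacTGACGTCAactccgcgcgg
Ddx51, chr5:110653396-110653425, plus strand: agtcgcgcccgTGACGTCAcccgagcctct

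All 4 of these stretches lie outside the gene in GENCODE. The NRF1 motif was in windows of Dhx34 and Dhx37, and both genes were lower with toyocamycin. So were 40.7% of all genes with a mean of at least 100 normalised reads. The directions of change of other genes with these motifs were not examined.

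Dhx34, chr7:16222066-16222095, minus strand: ttcgcgatctGCGCATGCGCagtctggaga
Dhx37, chr5:125434106-125434135, minus strand: cgcggctcttGCGCATGCGCaacccggaag

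In GENCODE the Dhx34 stretch lies outside the gene, though the RefSeq gene covers part of it, and 16 bases of that of Dhx37 lie in an exon. A match of letters describes these windows and does not show that a factor bound there.

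Each sample held 22.3 M to 36.7 M reads assigned to genes. Values are normalised read counts, that is reads divided by 1 size factor per sample, and changes are log2 changes of the normalised read count plus 1 with limma's standard error (SE). Adjusted p-values are from limma over all 16223 genes tested, with a threshold of 0.05. Positions of genes are those of RefSeq on GRCm38.p6. The directions of small changes depend on the scaling, since setting the samples to equal totals moved the median log2 change of all genes from −0.026 to −0.35. The ILC2 marker list (12 of 12 genes found) summed to 456460 to 465883 in Control and 316191 to 344298 with toyocamycin. Its genes differed: Il13 (86022 to 92377 in Control, 11473 to 13804 with toyocamycin), Il2ra, Il5, Il7r, Klrg1, Areg and Il17rb were lower in each toyocamycin sample than in any Control sample. Gata3 (31844 to 33186 in Control, 60472 to 71127 with toyocamycin), Il1rl1, Rora (1304 to 1538 and 18008 to 19294) and Hes1 were higher in each. The groups of Thy1 overlapped. The T cell list (8 of 8) summed to 4438 to 4625 in Control and 12558 to 13963 with toyocamycin, nearly all of it Cd28, with Cd3g at 135 to 162 in Control and 168 to 230.4 with toyocamycin. Cd3e (34.4 to 36.0 in Control, 3.39 to 9.71 with toyocamycin), Cd3d (at most 10.5) and Cd4 (at most 14.6) were low. The NK cell and ILC1 list summed to 7259 to 7652 in Control and 9538 to 10894 with toyocamycin, mostly Gzma, with Ifng at 0. The lists for ILC3s, B cells, mast cells and epithelium were at most 692 in any sample (Fcer1a and Krt20 at 0). Macrophage and dendritic cell markers summed to 952 to 1409 in Control and 1194 to 1672 with toyocamycin, and those of fibroblasts and endothelium to 1371 to 1609 and 775 to 1127. The part of these markers in the helicase results was not tested. In such bulk samples, fewer cells of a type and less RNA per cell cannot be told apart.

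Most helicase transcripts passed the test, in both directions. Of 34 Ddx genes tested, 18 were higher and 9 lower with toyocamycin, and 7 did not pass. Of 15 Dhx genes, 9 were higher and 5 lower, and 1 did not pass. Over all genes tested, 32.8% were higher and 33.1% lower (65.9% in either direction). Nearly all members are well expressed, and among genes with a mean of at least 100 normalised reads 45.6% were higher and 40.7% lower. The 31 Ddx genes of that level had 18 higher and 7 lower, and all 15 Dhx genes are at that level. With 39 of 46 members called there, against 86.3% of all such genes, the share of members called is near the background. A change of at least 2-fold was seen in 3 higher and 4 lower of the 34 Ddx genes. Of the 31 with a mean of at least 100, it was seen in 3 higher and 2 lower. Among the 15 Dhx genes, 5 were higher and 3 lower by that rule. By the same rule 17.0% of all genes tested were higher and 20.5% lower (20.5% and 21.1% of those with a mean of at least 100). The groups did not overlap in 26 of the 34 Ddx genes (24 of the 31 with a mean of at least 100) and in 13 of the 15 Dhx genes. The share was 69.1% of all genes tested and 87.6% of those with a mean of at least 100.

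**Figure D1:**
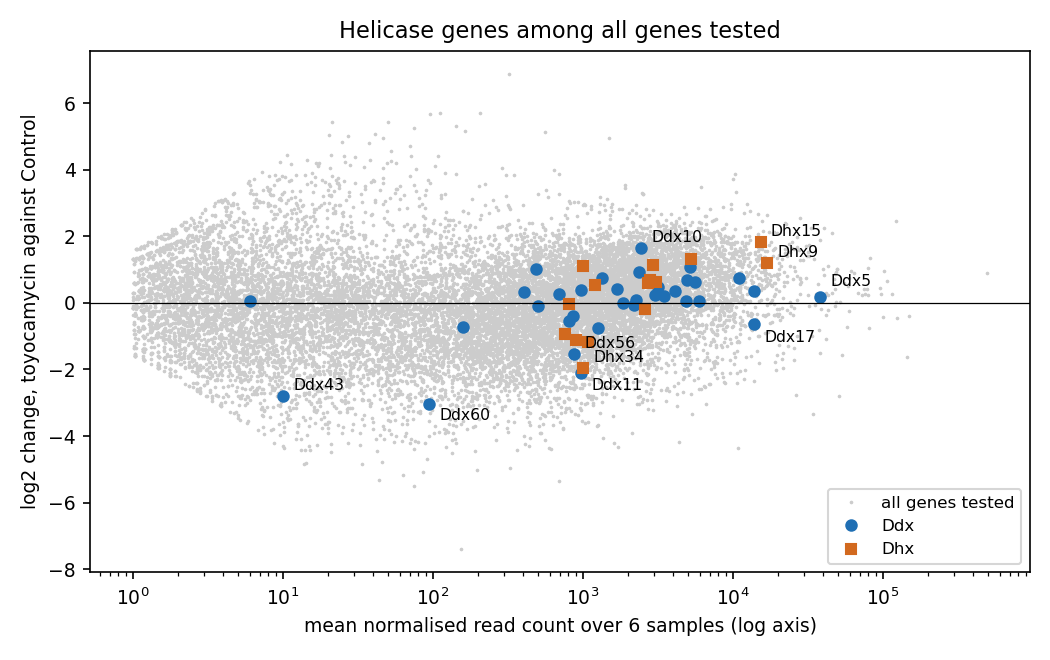
Each grey point is 1 of 16223 genes tested, with its mean normalised read count over 6 samples (log axis) against its log2 change with toyocamycin; blue circles are Ddx and orange squares Dhx genes. Most helicase genes sit above a mean of 100, and they lie both above and below 0, from Ddx60 at −3.03 to Dhx15 at 1.84.

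The balance of the Ddx genes turned with the scaling and that of the Dhx genes did not. With equal totals, 9 Ddx genes were higher and 18 lower (all genes tested: 24.9% higher, 42.5% lower and 67.4% either; mean of at least 100: 34.8%, 52.7% and 87.5%), while 9 Dhx genes were higher and 6 lower. Quantile normalization gave 12 Ddx genes higher and 18 lower, and 9 Dhx genes higher and 5 lower, where 33.0% of all genes tested were higher and 31.8% lower (44.3% and 41.3% of those with a mean of at least 100). The 9 Ddx genes called higher with both scalings were Ddx1, Ddx3y, Ddx6, Ddx10, Ddx18, Ddx24, Ddx31, Ddx42 and Ddx47. The 9 Ddx and 5 Dhx genes called lower on the deposited scale were lower with equal totals too. The median log2 change was 0.19 for Ddx and 0.60 for Dhx genes, against −0.026 for all genes tested and 0.065 for those with a mean of at least 100. With equal totals the medians were −0.16 and 0.25, against −0.35 and −0.28. After quantile normalization they were −0.15 and 0.22, against 0.031 and 0.034, so the Ddx median lay above that of all genes on the first 2 scales and below it on the last. On the deposited scale the summed Ddx values were 125434, 129529 and 129776 in Control and 148046, 156607 and 146967 with toyocamycin, higher without overlap. As a percent of all reads, which amounts to equal totals, the direction was the opposite: the summed Ddx transcripts took 0.544%, 0.547% and 0.551% of the reads in Control and 0.503%, 0.503% and 0.506% with toyocamycin. The summed Dhx values were 38586, 39469.7 and 38659.5 in Control and 76583, 81296 and 74639.8 with toyocamycin on the deposited scale. As a percent of all reads, they took 0.167%, 0.167% and 0.164% in Control and 0.260%, 0.261% and 0.257% with toyocamycin. None of these sums overlapped between the groups, and the Dhx sum was higher with toyocamycin on both scales, while the direction of the Ddx sum depended on the scaling. Most of the gain in the Dhx percent came from a pair of genes: without Dhx15 and Dhx9, the share was 0.0940% ± 0.00247 (SD, n = 3) in Control and 0.101% ± 0.000642 with toyocamycin. Without Ddx5, Ddx17 and Ddx3x, the Ddx share was 0.271% ± 0.00134 in Control and 0.279% ± 0.00229 with toyocamycin.

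**Figure D2:**
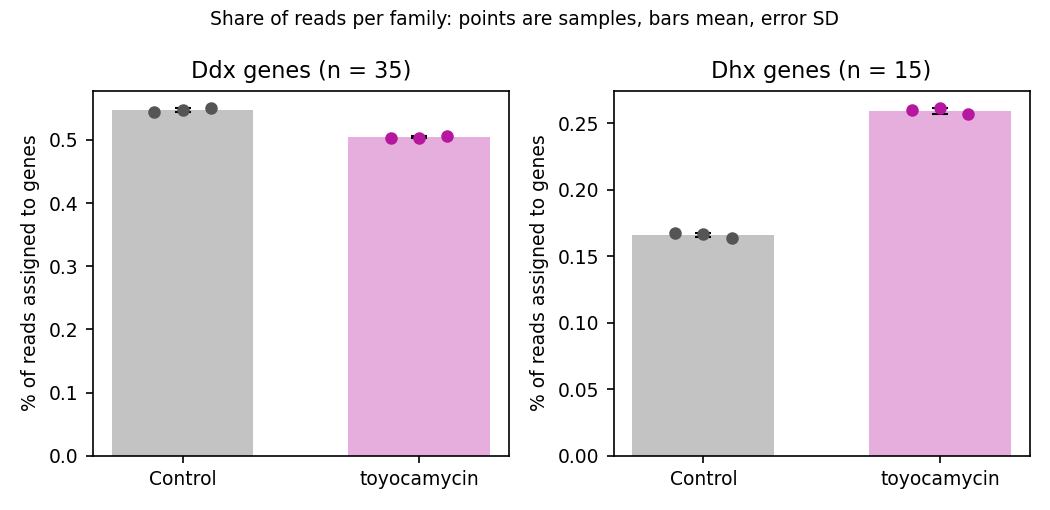
The bars give the mean percent of reads taken by the 35 Ddx genes (left) and the 15 Dhx genes (right) in each group, with the SD as error bar and 3 samples as points. Relative to all reads, the Ddx share was 0.547% in Control and 0.504% with toyocamycin (the sum of normalised values went the other way), and the Dhx share was 0.166% and 0.259%.

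Helicases of ribosome assembly, which remodel precursor ribosomal RNA in the nucleolus, were called in both directions. On the deposited scale 9 of the 15 members in this role were higher, 3 were lower and 3 did not pass. Equal totals left 6 higher and 7 lower. Among all genes with a mean of at least 100, 45.6% were higher and 40.7% lower (34.8% and 52.7% with equal totals). These shares are also the background for the counts in the later roles. Ddx10 (chromosome 9, 53098454 to 53248170), needed for the small ribosomal subunit, had 1164, 1154 and 1229.6 in Control and 3637, 3783 and 3634 with toyocamycin. It was the Ddx gene with the highest positive change, 3.12-fold higher (log2 change 1.64, SE 0.059, adjusted p = 6.06e-16), with no overlap between the groups. Ddx47, which also acts on the small subunit, had 1576, 1567 and 1761 in Control and 3199, 3151 and 2992 with toyocamycin, and rose 1.91-fold (log2 change 0.93, SE 0.062, adjusted p = 1.87e-11). Ddx31, a nucleolar helicase known to bind nucleophosmin, had 296, 315 and 351 in Control and 586, 719.9 and 646 with toyocamycin (2.03-fold higher; log2 change 1.02, SE 0.11, adjusted p = 3.37e-08). The lowest toyocamycin sample was above the highest Control sample for each of these 3 genes. Ddx18, a helicase of the large subunit, had 1010.3, 991 and 1016 in Control and 1701, 1855 and 1529 with toyocamycin and rose 1.68-fold (log2 change 0.75, SE 0.074, adjusted p = 1.06e-08). Its value is uncertain, because 55.9% of its 50-base sequences are also in other annotated genes, of which Gm16433 shares the most. Ddx24 rose 1.62-fold and Dhx33, a DEAH-box helicase that promotes transcription of ribosomal RNA genes, 1.46-fold. Smaller rises were called for Ddx52 (0.43), Ddx54 (0.20) and Ddx55 (0.26), but with equal totals Ddx52 (0.080) and Ddx55 (−0.092) did not pass and Ddx54 was called lower (−0.14). The call of Ddx55 also ended when toyocamycin replicate 1 (0.23) or 2 (0.20) or Control replicate 1 (0.22) was left out. Exons of Cfap73 and Gm43579 on the opposite strand cover 15.5% of the Ddx54 exon bases.

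The lowest change in this role was that of Ddx56, a nucleolar helicase of the large subunit (chromosome 11, 6257545 to 6269786). It had 1323, 1308 and 1270 in Control and 458, 528 and 374 with toyocamycin, and was 2.87-fold lower (log2 change −1.53, SE 0.10, adjusted p = 1.43e-11). Dhx37, which works on the small subunit and frees the U3 small nucleolar RNA, had 1209.6, 1249.8 and 1243 in Control and 571, 576 and 566 with toyocamycin. Its groups lay far apart, 2.16-fold lower with toyocamycin (log2 change −1.11, SE 0.075, adjusted p = 2.02e-11). Utp14a encodes the partner that activates Dhx37, and it fell too, 2.48-fold, with 876, 869.7 and 884 in Control and 330.2, 415 and 317 with toyocamycin (log2 change −1.32, SE 0.10, adjusted p = 2.64e-10). Ddx49 had a mean ± SD of 962 ± 75.4 in Control and 659 ± 36.7 with toyocamycin (n = 3 each) and fell 1.46-fold (adjusted p = 6.88e-06). Exons of Homer3 cover 29.8% of the Ddx49 exon bases on the opposite strand, and Homer3 itself had a log2 change of −1.51. Without a known strand setting the reads of both genes cannot be told apart. Ddx27 (0.095), Ddx50 (−0.055) and Ddx51 (−0.10) did not pass on the deposited scale, and with equal totals they were called lower (−0.25, −0.40 and −0.45).

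**Figure D3:**
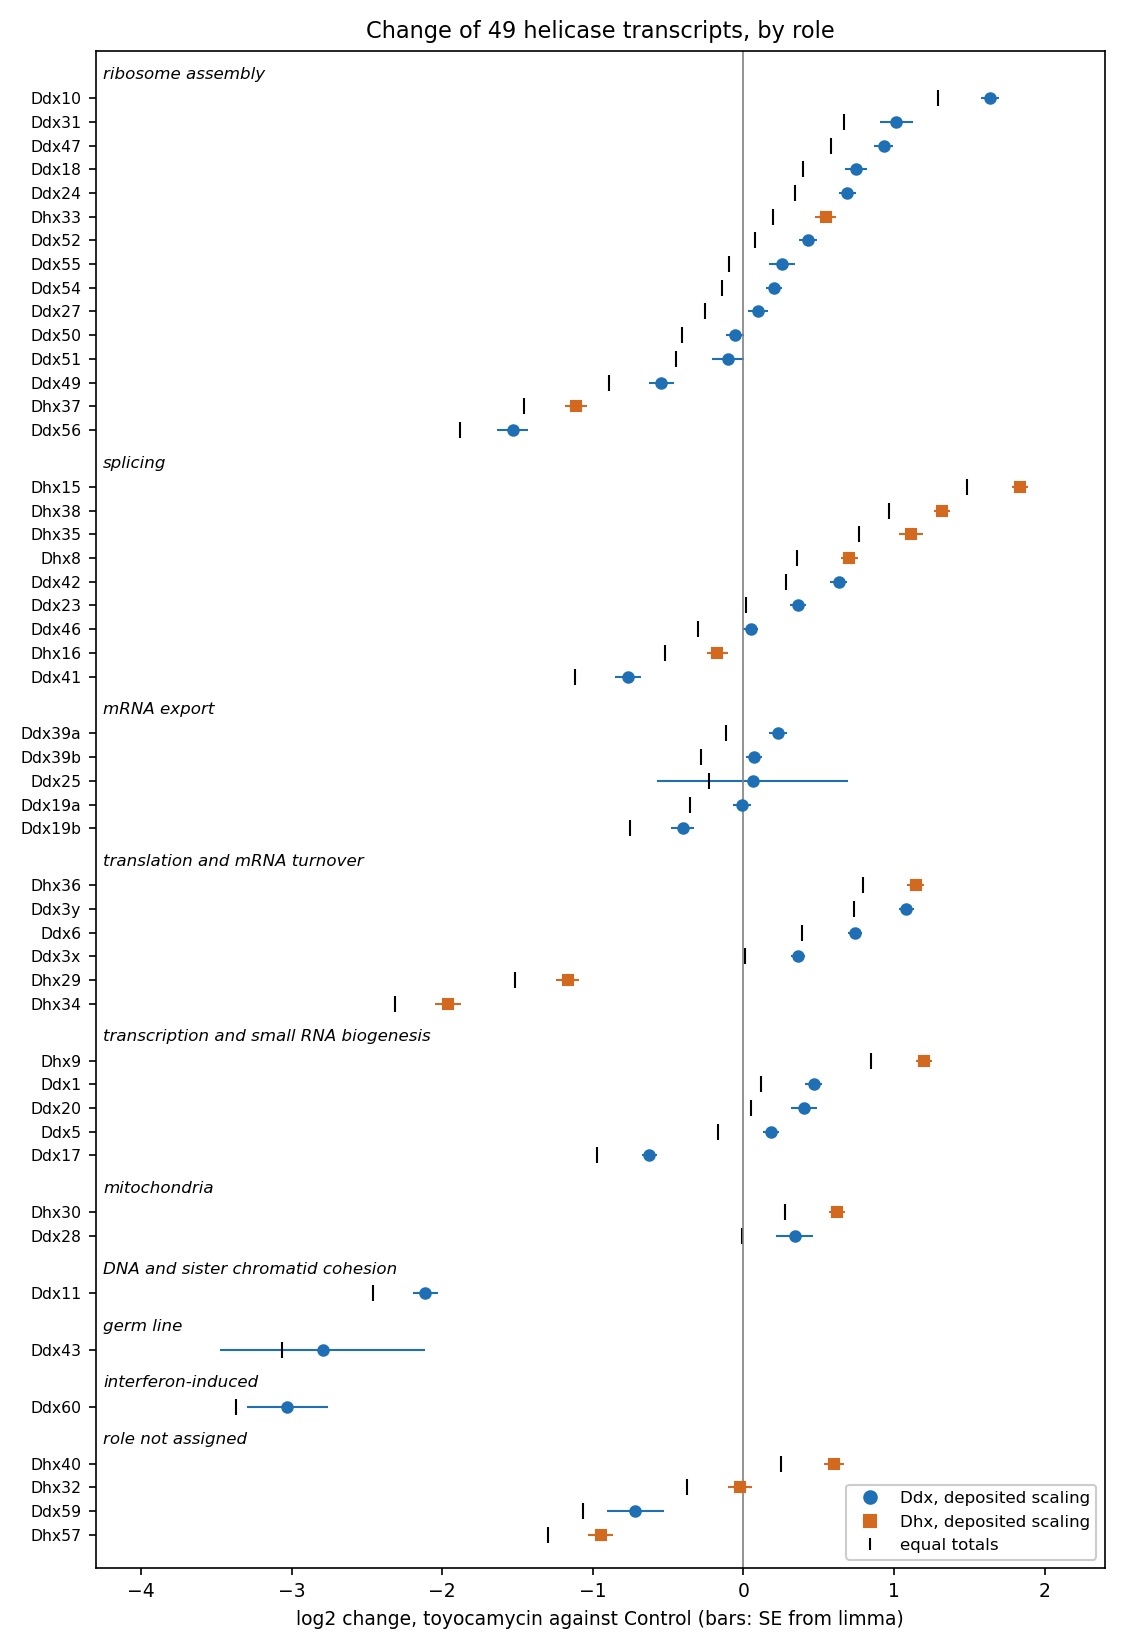
Each row is 1 of 49 helicase genes tested, grouped by role; the marker is its log2 change with toyocamycin on the deposited scale (blue circle Ddx, orange square Dhx, bar SE) and the black tick its change with equal totals. Ticks lie about 0.35 to the left of the markers, and Ddx10, Dhx15, Dhx38 and Dhx9 stay right of 0 on both scales.

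The splicing helicases gave the gene with the highest positive change of all members. Higher values were called in 6 of 9 genes and lower values in 2 (5 and 3 with equal totals), and 1 did not pass. Of all genes with a mean of at least 100, 45.6% were higher and 40.7% lower. Dhx15 (chromosome 5, 52150203 to 52190546) takes apart the spliceosome after the intron lariat is released. It had 6412, 6634 and 7004 in Control and 23596, 24829 and 23179 with toyocamycin, a 3.57-fold rise (log2 change 1.84, SE 0.051, adjusted p = 1.42e-17). Dhx38, the Prp16 protein that remodels the spliceosome between its chemical steps, had 3051, 2989 and 2945 in Control and 7484, 7857 and 7104 with toyocamycin and rose 2.50-fold (log2 change 1.32, SE 0.053, adjusted p = 3.89e-15). Both genes had groups far apart. Dhx35, found in active spliceosomes, rose 2.17-fold (means 636 ± 45.5 in Control and 1378 ± 62.3 with toyocamycin). Dhx8, which releases spliced mRNA, rose 1.63-fold (means 2133 ± 13.9 in Control and 3476 ± 146 with toyocamycin). Ddx42, an SF3b-associated helicase, rose 1.55-fold and Ddx23, a component of the U5 particle, 1.29-fold, but Ddx23 did not pass with equal totals (0.016) and was called lower after quantile normalization (−0.11).

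The remaining 3 splicing members were lower or did not pass. Ddx46, the Prp5 protein that helps U2 to join the intron, did not pass (0.049, adjusted p = 0.417) and was called lower with equal totals (−0.30). Ddx41, a helicase of the catalytic spliceosome that is also described as a DNA sensor, had 1479, 1681 and 1629 in Control and 883, 1081 and 861 with toyocamycin, and fell 1.69-fold (log2 change −0.77, SE 0.084, adjusted p = 5.42e-08). The groups of Ddx41 did not overlap, although 17.4% of its exon bases are also exons of Gm46416 on the other strand. Dhx16, which prepares the spliceosome for the first step, was 1.12-fold lower on the deposited scale (log2 change −0.17, SE 0.070, adjusted p = 0.033), but its groups overlapped. That call ended without Control replicate 1 (−0.19), 2 (−0.14) or 3 (−0.19), without toyocamycin replicate 1 (−0.15) or 3 (−0.11), and in DESeq2 (−0.16, adjusted p = 0.0555).

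**Figure D4:**
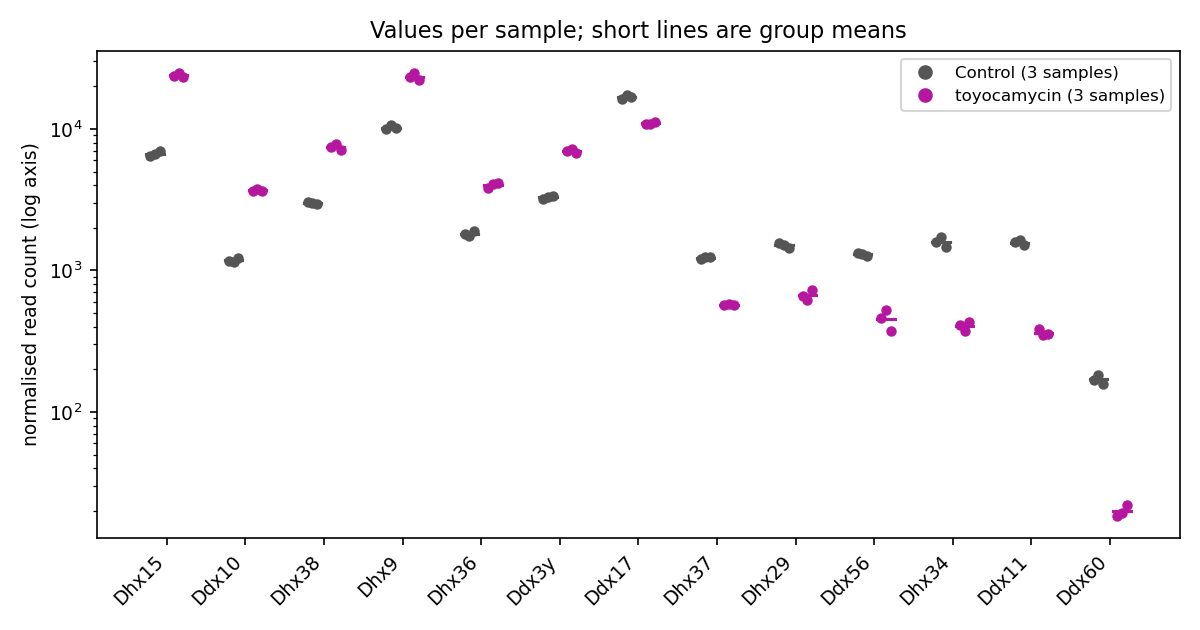
Normalised read counts (log axis) of 13 helicase genes in each of the 3 Control (grey) and 3 toyocamycin (purple) samples, with group means as short lines. Dhx15, Ddx10, Dhx38, Dhx9, Dhx36 and Ddx3y lie higher with toyocamycin, and Ddx17, Dhx37, Dhx29, Ddx56, Dhx34, Ddx11 and Ddx60 lower, with no overlap between the groups of any of them. Most of these genes are among the most changed members past the threshold. The groups did not overlap in 87.6% of all genes with a mean of at least 100.

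The helicases of mRNA export mostly did not pass. Only Ddx39a passed as higher and only Ddx19b as lower among 5 genes tested with limma, while equal totals made 4 lower. Ddx39b, the UAP56 protein that loads export factors onto spliced mRNA, had 4649, 4672 and 4879 in Control and 4943, 5271 and 4700.2 with toyocamycin. The groups overlapped (log2 change 0.070, SE 0.055, adjusted p = 0.278), and the gene was called lower with equal totals (−0.28). Its close relative Ddx39a had 2641, 2737 and 2948 in Control and 3312, 3415 and 3049 with toyocamycin (log2 change 0.23, SE 0.061, adjusted p = 0.00211), and it too was called lower with equal totals (−0.12). Exons of Adgre5 cover 17.4% of the Ddx39a exon bases on the opposite strand, and Adgre5 had a log2 change of −1.34. Ddx19a, a helicase of the Dbp5 type that strips proteins from mRNA at the nuclear pore, had 1813, 1903 and 1887 in Control and 1816, 1899.6 and 1864 with toyocamycin. Both groups covered nearly the same range (log2 change −0.0060, SE 0.060, adjusted p = 0.937), and the gene was called lower with equal totals (−0.35). Ddx19b, its neighbour on chromosome 8, had 936, 1043 and 965 in Control and 714, 759.7 and 750.4 with toyocamycin and fell 1.32-fold (log2 change −0.40, SE 0.078, adjusted p = 0.000104). Reads of this pair can be mixed up, because 28.1% of the 50-base sequences of Ddx19a and 12.4% of those of Ddx19b are in another gene, and each shares the most with the other. Ddx25, known from the testis, had 4 to 10 reads per library and did not pass.

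In the role of translation and mRNA turnover all 6 members passed, 4 higher and 2 lower. Of all genes with a mean of at least 100, 86.3% passed, 45.6% as higher and 40.7% as lower. Ddx6, which represses translation and helps to decap mRNA in P-bodies, had 8344, 8276 and 8096 in Control and 13779, 14069 and 13428 with toyocamycin. It rose 1.67-fold (log2 change 0.74, SE 0.048, adjusted p = 9.60e-12), and the groups were widely separated. Dhx36, which unwinds G-quadruplexes in RNA and DNA, had 1800.4, 1763 and 1905 in Control and 3823, 4110.1 and 4159 with toyocamycin, a 2.21-fold rise (log2 change 1.14, SE 0.058, adjusted p = 1.90e-13). Ddx3x, which aids the translation of mRNAs with structured leaders, had 12084, 12188 and 11999 in Control and 14994, 15689 and 15957 with toyocamycin and rose 1.29-fold on the deposited scale (log2 change 0.36, SE 0.048, adjusted p = 8.26e-07). With equal totals it did not pass (0.013, adjusted p = 0.769), and after quantile normalization it was called lower (−0.14). Ddx3y, its counterpart on the Y chromosome, had 3211, 3305 and 3363 in Control and 6974, 7256 and 6713 with toyocamycin and rose 2.12-fold (log2 change 1.08, SE 0.052, adjusted p = 7.09e-14).

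Both members that fell in this role are DEAH-box proteins. Dhx34 (chromosome 7, 16197220 to 16222078) promotes nonsense-mediated decay, the removal of mRNAs with early stop codons. It had 1589, 1716 and 1474 in Control and 415, 374 and 435 with toyocamycin, and was 3.91-fold lower (log2 change −1.96, SE 0.086, adjusted p = 1.45e-14). The decay factor it works with, Upf1, went the other way, with 4005, 4336 and 4419.9 in Control and 9848, 10445 and 9998 with toyocamycin (2.37-fold higher; log2 change 1.25, SE 0.053, adjusted p = 8.73e-15). Dhx29, which helps the small ribosomal subunit to scan structured leaders, had 1551, 1515 and 1447 in Control and 664, 619 and 729.7 with toyocamycin. That was 2.24-fold lower (log2 change −1.17, SE 0.077, adjusted p = 1.63e-11), without overlap.

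Among the helicases of transcription and small RNA biogenesis, Dhx9 and Ddx17 moved apart. Of 5 members 4 were higher and 1 lower, and with equal totals 2 were higher and 2 lower. The shares of all genes with a mean of at least 100 were 45.6% higher and 40.7% lower. Dhx9 (chromosome 1, 153455756 to 153487688), also known as RNA helicase A, couples RNA polymerase to other factors and unwinds inverted repeats. It had 9912, 10604 and 10076 in Control and 23429, 24877 and 21998 with toyocamycin, a 2.30-fold rise (log2 change 1.20, SE 0.053, adjusted p = 1.99e-14). Ddx5, or p68, a coactivator that also serves in microRNA processing, was the most abundant member and had 34606, 36002 and 36648 in Control and 39381, 42892 and 39438 with toyocamycin. The rise on the deposited scale was 1.13-fold (log2 change 0.18, SE 0.053, adjusted p = 0.0046), but the gene was called lower with equal totals (−0.17) and after quantile normalization (−0.16), and the call ended without Control replicate 1 (0.16, adjusted p = 0.0515). Other annotated genes hold 14.6% of the 50-base sequences of Ddx5. Ddx17, or p72, its closest relative, had 16301, 17385 and 16914 in Control and 10815, 10899.8 and 11131 with toyocamycin, and fell 1.54-fold (log2 change −0.62, SE 0.048, adjusted p = 2.00e-10). All Ddx17 values with toyocamycin were below all those in Control. Ddx1, part of the tRNA ligase complex, rose 1.38-fold. Its change was 0.47 on the deposited scale, 0.12 with equal totals (adjusted p = 0.0307) and 0.029 after quantile normalization, where it did not pass. Ddx20, the Gemin3 protein of the SMN complex, rose 1.32-fold, but did not pass with equal totals (0.052).

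The remaining roles held the members with the most negative changes. Ddx60, an interferon-induced helicase, had 169, 182 and 159 in Control and 18.5, 19.5 and 21.9 with toyocamycin (chromosome 8, 61928073 to 62037704). It was 8.51-fold lower (log2 change −3.03, SE 0.27, adjusted p = 2.11e-09), with a wide gap between the groups, but its lowest library held 14 reads, and its change ranged from −3.37 to −2.61 over 15 alternatives. Ddx11 (chromosome 17, 66123513 to 66152174), a DNA helicase that acts in sister chromatid cohesion at the replication fork, had 1578, 1639 and 1509.6 in Control and 384, 351 and 356 with toyocamycin. It fell 4.33-fold (log2 change −2.11, SE 0.081, adjusted p = 1.76e-15), with no overlap between the groups. Both mitochondrial members were called higher: Dhx30, a helicase of mitochondrial ribosome assembly, 1.54-fold (0.62), and Ddx28, of the same process, 1.28-fold (0.34). The Ddx28 groups overlapped. With equal totals its change was −0.0084 and did not pass, nor did it pass without Control replicate 1 (0.30) or 3 (0.31) or toyocamycin replicate 1 (0.30) or 2 (0.24). Of the germ line genes, Ddx4 had at most 2 reads in any library and was not tested. Ddx43 had 14.0 to 21.1 normalised reads in Control and 0 to 4.23 with toyocamycin, at or near the floor of 3 reads (2.54 to 3.96 normalised reads), so its fitted change of −2.79 (adjusted p = 0.00107) rests on few reads. Exons of 4930542C12Rik on the opposite strand cover 15.9% of the Ddx43 exon bases.

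Of the 4 members with no assigned role, 1 was higher, 2 lower and 1 did not pass. Dhx57 had 1037, 1009 and 952 in Control and 534, 527 and 494 with toyocamycin and fell 1.93-fold (log2 change −0.95, SE 0.082, adjusted p = 1.32e-09). Ddx59 had 192, 195 and 200.1 in Control and 114, 153 and 95.9 with toyocamycin (log2 change −0.72, SE 0.19, adjusted p = 0.00204), with no overlap, but the call ended after quantile normalization (−0.17). Dhx40 rose 1.52-fold (means 2146 ± 148 in Control and 3259.9 ± 246 with toyocamycin). Dhx32 did not pass (−0.025), and was called lower with equal totals (−0.37).

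Ratios of related helicases within a sample do not depend on the single factor by which a sample is scaled. Quantile normalization is not such a factor and can change them. After it the log2 changes were −0.35 for Ddx19b and −0.28 for Ddx19a, and −1.09 for Ddx17 and −0.16 for Ddx5. The ratios below are of the deposited values. Close relatives were compared in 6 pairs (6 exact permutation tests, two-sided, adjusted over the pairs). With 3 samples against 3 the smallest p that this test can give is 0.1, so none could pass 0.05. The ratio of Ddx17 to Ddx5 was 0.471, 0.483 and 0.462 in Control and 0.275, 0.254 and 0.282 with toyocamycin. All ratios with toyocamycin lay below all Control ratios (log2 difference −0.80, exact p = 0.1, adjusted 0.12). The ratio of Ddx3y to Ddx3x was 0.266, 0.271 and 0.280 in Control and 0.465, 0.463 and 0.421 with toyocamycin (log2 difference 0.72, exact p = 0.1, adjusted 0.12). Here the toyocamycin samples were the higher ones. At 50 bases the pair shares little sequence: 0.0384% of the 50-base sequences of Ddx3y are in another gene. Reads of the Y-linked Ddx3y were in every sample, but whether both groups held the same share of male cells was not tested. The ratio of Ddx19b to Ddx19a was 0.516, 0.548 and 0.512 in Control and 0.393, 0.3999 and 0.403 with toyocamycin (log2 difference −0.40, exact p = 0.1, adjusted 0.12). The ratio of Ddx39a to Ddx39b was 0.586 ± 0.0181 (SD, n = 3) in Control and 0.656 ± 0.0126 with toyocamycin, and that of Dhx57 to Dhx29 was 0.664 ± 0.00544 and 0.777 ± 0.0897. The groups did not overlap in either pair, though the Dhx57 ratio of toyocamycin replicate 3, at 0.677, was close to Control. The Dhx36 to Dhx9 ratio was 0.179 ± 0.0116 in Control and 0.172 ± 0.0144 with toyocamycin, with overlap (log2 difference −0.055, exact p = 0.6).

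**Figure D5:**
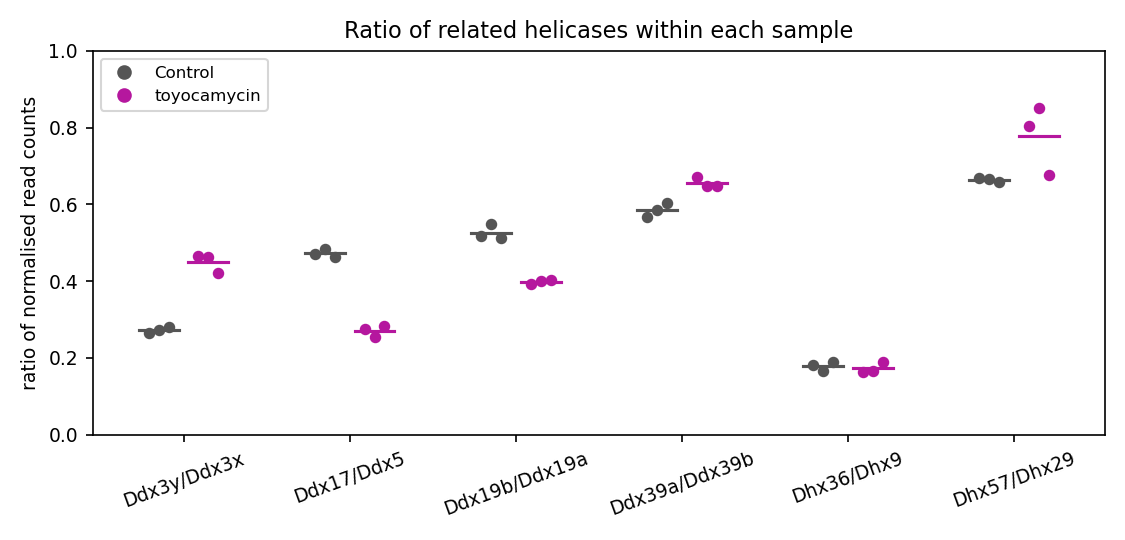
Ratio of normalised read counts for 6 pairs of related helicases in each Control (grey) and toyocamycin (purple) sample, with group means as lines. The Ddx17 to Ddx5 ratio went from a mean of 0.472 to 0.270 and the Ddx3y to Ddx3x ratio from 0.272 to 0.449, while the Dhx36 to Dhx9 groups overlapped.

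The order of the members by level changed as well. Levels between genes are compared per kilobase of annotated exon (GENCODE, all isoforms joined). By this measure Ddx5 was first in both groups, with 6191 and 7025 normalised reads per kilobase in Control and toyocamycin. Ddx3x was next, with 2291 and 2946. Ddx17 was the third in Control and the eighth with toyocamycin (2207 and 1432), while Dhx15 was the third with toyocamycin (787 and 2809) and Dhx9 the fourth (1062 and 2440.3). Of all Dhx reads, Dhx15 took 17.2% ± 0.816 (SD, n = 3) in Control and 30.8% ± 0.257 with toyocamycin. Ddx17 took 13.2% ± 0.236 of the Ddx reads in Control and 7.28% ± 0.308 with toyocamycin. Across the 49 members tested, the log2 change had a Spearman correlation of 0.13 with gene span, 0.17 with exon length and 0.32 with the Control level. These correlations are across genes of the same libraries and are given as a description.

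RNA helicases with other names also changed in both directions. Of 23 listed, 19 were tested, with 11 higher and 6 lower (11 and 8 with equal totals). Their median log2 change was 0.51, or 0.17 with equal totals. For all genes with a mean of at least 100 it was 0.065, or −0.28 with equal totals. Over all genes tested 32.8% were higher and 33.1% lower, and 45.6% and 40.7% of those with a mean of at least 100. With equal totals these shares were 24.9% and 42.5%, and 34.8% and 52.7%. Eif4a2, a translation initiation helicase, rose 2.78-fold with 7179.7, 7367 and 7697 in Control and 19939, 21342 and 20552 with toyocamycin (log2 change 1.47, SE 0.050, adjusted p = 2.38e-16). Ascc3, which resolves stalled ribosomes, rose by 1.26 on the log2 scale and Aqr, the intron-binding helicase of the spliceosome, by 1.00. Helz2, a nuclear coactivator induced by interferon, had 5199, 5384 and 4601 in Control and 719.7, 636 and 665 with toyocamycin. It fell 7.51-fold (log2 change −2.91, SE 0.070, adjusted p = 2.25e-18), and Ifih1, the double-stranded RNA sensor MDA5, fell 2.96-fold (−1.56). Skiv2l, the helicase of the cytoplasmic exosome, fell 1.55-fold.

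Proteins that bind or activate the helicases were examined as a second list. All 42 were tested, with 28 higher and 10 lower (21 and 14 with equal totals) and a median log2 change of 0.46, or 0.11 with equal totals. Among all genes with a mean of at least 100, 45.6% were higher and 40.7% lower (34.8% and 52.7% with equal totals). Nkrf, a G-patch protein that activates Dhx15, had 342, 329 and 323 in Control and 1231, 1273 and 1347 with toyocamycin and rose 3.87-fold (log2 change 1.95, SE 0.085, adjusted p = 1.30e-14). Rbm17, a G-patch splicing factor, rose 3.70-fold (log2 change 1.89, SE 0.064, adjusted p = 2.63e-16). Pdcd4, an inhibitor of the helicase eIF4A, rose 3.42-fold and Sarnp, which binds Ddx39b in export complexes, 3.93-fold, at a low level (71.2 ± 12.2 in Control and 279.6 ± 36.5 with toyocamycin). Apart from Utp14a, the most negative changes were those of Gle1 (−0.74), which activates Ddx19 proteins at the pore, and of the G-patch genes Gpatch1 (−0.72) and Gpatch4 (−0.71). The 6 listed partners of Ddx6 were Patl1 (1.15), Lsm14a (0.78), Lsm14b (0.52), Cnot1 (0.46), Eif4enif1 (0.46) and Edc3 (0.41). All 6 were called higher on the deposited scale, as was Ddx6, but Cnot1 (0.11) and Edc3 (0.059) did not pass with equal totals. This grouping by helicase was made after the values were seen.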

How the data were processed

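RNA was sequenced in 3 Control and 3 toyocamycin samples. The authors used cutadapt 4.7, FastQC and build mm10, per the submitters' processing notes; the sources used here do not name the aligner, counter, strand setting or annotation. Though the name of the deposited table says FPKM, it holds a scaled signal, in which each sample's gene reads were divided by a single size factor. Multiplying back gave whole reads for 100% of values (within 0.01 reads). On those reads the count test edgeR called 4980 genes higher and 5329 lower of 12949.

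Values were analysed as log2(value + 1) with limma 3.58.1 (R 4.3.3) and a mean-variance trend, over the 16223 genes whose mean reached 1, and adjusted by Benjamini-Hochberg. The pseudocount understates changes of low genes. edgeR 4.0.16 and DESeq2 1.42.0 on the recovered reads, other pseudocounts, filters and scalings, a replicate block and leaving out each sample were alternatives. The calculation was tested on simulated counts in which few genes changed and limma was given the known depth. That test does not bear on the choice of scaling. Between replicates, chi-square over degrees of freedom was 3.96 to 7.76, above counting noise, so all 6 samples were kept. Intervals from counting are not given; floors cover counting error only.

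Members, role lists and partner lists were chosen with earlier results of these data known. Values in every sample are given for the 6 Ddx and 3 Dhx genes most changed in each direction (adjusted p under 0.05, mean of at least 100 in the higher group), the 3 Ddx and 2 Dhx genes of highest mean, and 6 pairs of relatives; 4 genes per direction are named from each list, except 1 that is not reported here. Sequence sharing was computed as 50-base sequences of GENCODE M21 transcripts found, on either strand, in transcripts of another gene. That annotation is on GRCm38, as are the RefSeq coordinates, the same build as mm10.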

Additional observations from a re-analysis of the deposited data

How the results depend on the processing

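Counts of Dhx genes stayed within 1.5 times of the main count under all alternatives, at 9 higher and 4 to 6 lower. The Ddx counts were 18 higher and 9 lower with edgeR and with DESeq2 on recovered reads, with other pseudocounts and filters, and with the replicate block (18 and 9). They moved with scaling: 9 higher and 18 lower with equal totals, and 12 higher and 18 lower with quantile normalization. With 1 sample left out, 15 to 18 Ddx genes were higher and 9 lower, and 9 Dhx genes were higher and 4 to 5 lower. The labels state no pairing. Deviations from the group mean correlated at −0.04 to 0.02 for same-numbered samples and −0.09 to 0.08 for the others. With so few samples this cannot settle whether they were paired. The replicate block changed no call of a member. Of 733 values of single members under an alternative, 681 kept direction and call, and 26 changed sign. Among those that kept their sign, 20 lost the call and 6 gained one. Calls gained or lost together with a change of sign are counted only among the 26.

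With equal totals, the sign turned negative for Ddx5 (−0.17), Ddx25 (−0.23), Ddx27 (−0.25), Ddx28 (−0.0084), Ddx39a (−0.12), Ddx39b (−0.28), Ddx46 (−0.30), Ddx54 (−0.14) and Ddx55 (−0.092). With quantile normalization it did so for Ddx3x (−0.14), Ddx5 (−0.16), Ddx23 (−0.11), Ddx27 (−0.24), Ddx39a (−0.20), Ddx39b (−0.42), Ddx46 (−0.44) and Ddx54 (−0.26), and turned positive for Ddx51 (0.15) and Dhx32 (0.070). The median of the Ddx genes was −0.16 with equal totals, where that of all genes was −0.35, and −0.15 with quantile normalization, where that of all genes was 0.031. The cause was not tested. Leaving out 1 sample turned the sign of 3 genes that did not pass, over ranges of −0.027 to 0.011 for Ddx19a, −0.21 to 0.39 for Ddx25 and −0.077 to 0.017 for Dhx32. Depth limits Ddx4, Ddx25 and Ddx43, which had 24 reads or fewer per library, and the size of the fall of Ddx60, with as few as 14 reads in a library.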
